A study of Mus musculus with 3 samples.

Results

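The genes described here are 34 genes of B cell identity and B cell receptor signalling, taken by name: a list of symbols, drawn up with earlier results of these data known, was matched to the gene names of the array. All 34 were found, among 36609 genes in all, and each was read from the probe that the scanner software called well above background on the most arrays, the brighter one in a tie. They are taken here by role, as 15 surface receptors, 8 signalling proteins, 9 transcription factors and 2 proteins of the endoplasmic reticulum. The cells came from the spleen of MRL/MpJ males aged 6 months, were freed of red cells with ammonium chloride and were cultured in contact with an agent for 3 h. That agent was PBS in the control, urine from the MRL/MpJ strain, or urine from the MRL/MpJ-Faslpr/lpr strain, called lpr urine here, in which the death receptor Fas is defective. Only the urine donors differed at Fas, since the cells of all 3 arrays carried the MRL/MpJ background. The urine of each strain was a pool from 6 male donors aged 6 months, so that variation between donors was not measured. Each condition had 1 array. No comparison therefore had a replicate, no p-value or standard error could be had, and each difference below describes a pair of arrays. The labels do not say whether the 3 cultures came from 1 spleen.

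B cells recognise antigen through membrane immunoglobulin, which signals through the paired chains CD79A and CD79B. Kinases of the Src family (Lyn, Blk) phosphorylate these chains, Syk and Btk are recruited, and the adaptor BLNK brings in phospholipase C gamma 2, which raises calcium. The complement receptor CD21 (Cr2) helps to amplify the signal, whereas CD22, Siglec-G, CD72 and Fc gamma receptor IIB dampen it through phosphatases. Pax5, Ebf1 and Tcf3 (E2A) set up and maintain the B cell programme, and Bcl6 and Bach2 hold off conversion to plasma cells. The spleen is rich in follicular and marginal zone B cells, the latter marked by high CD21 and CD1d.

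All 34 genes were well above background on all 3 arrays, and none was saturated. Levels are log2 processed signal minus the 75th percentile of the array, which was 157.5 intensity units with PBS, 86.64 after MRL/MpJ urine and 75.71 after lpr urine. Because the PBS array was brighter over most probes, a gene of equal signal on the PBS and MRL/MpJ urine arrays has a scaled log2 difference of 0.86. The 8 measured E1A spike-ins, transcripts added in fixed amount, differed by 0.05 and -0.06 between the urine arrays and PBS in median log2 signal. Scaling to them in place of the 75th percentile would move every difference from PBS by -0.90 after MRL/MpJ urine and by -0.99 after lpr urine. The order of the genes within a comparison is the same under either scaling, and so is a gene's distance from the median of all genes, which was 0.13 and 0.15 in the 2 comparisons with PBS. Probes spotted 10 times on each array gave a median SD of 0.06 for a log2 difference from PBS. That SD was 0.05 at log2 signals above 11 and 0.10 between 8 and 11 in both of these comparisons. Between 5 and 8 it was 0.13 in the comparison with MRL/MpJ urine. In that comparison the range from 8 to 11 held only 7 such probes and that from 5 to 8 only 5, against 264 above 11. The SD leaves out variation between cultures and arrays.

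B cell genes lay toward the higher side of all genes on both urine arrays, and surface receptors more so than transcription factors. With MRL/MpJ urine, 14 of the 34 read at least 2-fold higher than with PBS (41.2%, against 16.9% of 19639 genes measured on both arrays) and 1 at least 2-fold lower (2.94%, against 11.1%). With lpr urine, 13 read at least 2-fold higher (38.2%, against 18.5% of 19368 genes) and 1 lower (2.94%, against 12.0%). The median difference of the 34 was 0.72 after MRL/MpJ urine and 0.71 after lpr urine, against the 0.13 and 0.15 of all genes. All 34 were among the brighter genes, and after MRL/MpJ urine the 11435 genes of such brightness had a median of -0.08, with 13.6% at least 2-fold higher and 13.9% lower. By role, 8 of 15 surface receptors, 4 of 8 signalling genes, 1 of 9 transcription factors and 1 of 2 reticulum proteins reached 2-fold on the higher side after MRL/MpJ urine, and for lpr urine the counts were the same but for 7 surface receptors. Medians were 1.07 and 0.99 for surface receptors and 0.79 and 0.73 for signalling genes, against the 0.09 and 0.00 of transcription factors. The median of surface receptors was also above that of transcription factors with quantile scaling and normexp, in both comparisons. So it was with the mean of probes, the probe of smallest difference and RefSeq probes alone. Median and spike-in scaling shift all genes of a comparison alike and cannot change this order. On the spike-in scale the medians of the 34 were -0.19 and -0.28, so that the B cell genes read lower than with PBS there, but less so than all genes (-0.78 and -0.84). In RNA from a mixed culture, fewer cells of a type and less RNA per cell cannot be told apart. The comparisons share the PBS array, so that the values of both urines are given side by side and not as a repeat of each other.

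**Figure D1:**
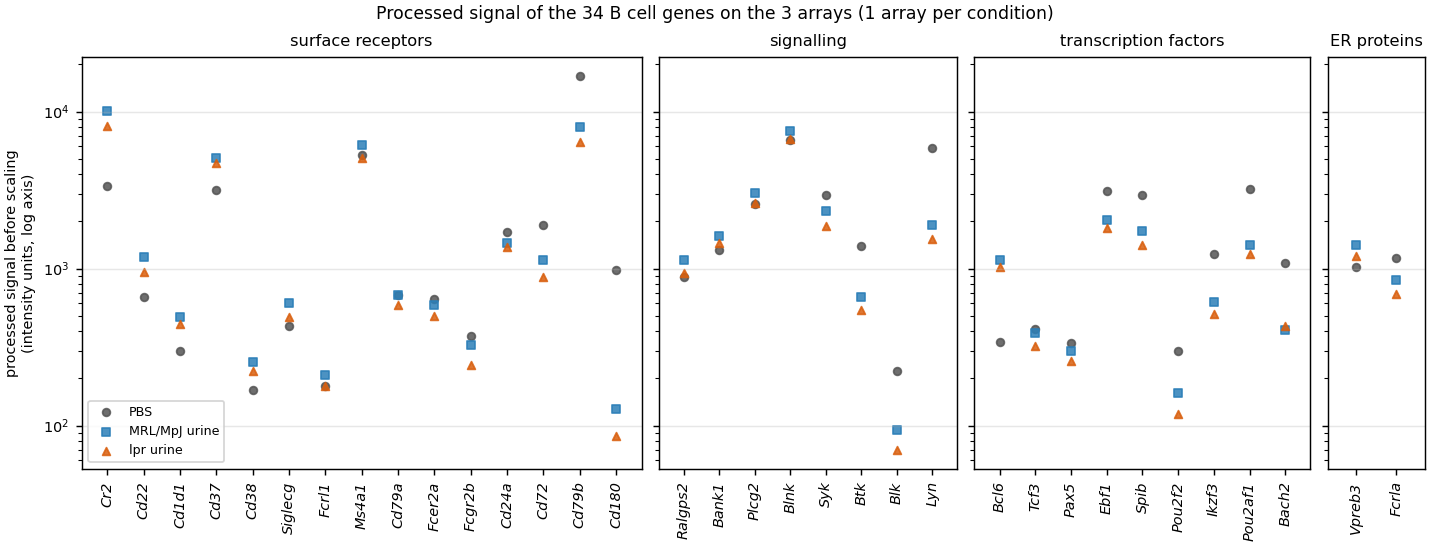
Processed signal before scaling, in intensity units on a log axis, of the 34 B cell genes on the PBS array (grey circles), the MRL/MpJ urine array (blue squares) and the lpr urine array (orange triangles), by role. Cr2 read 3339 units with PBS and 10071 and 8057 with urine, whereas Cd79b, Lyn and Cd180 lay highest with PBS; symbols of different genes cannot be compared in level, because they come from different probes.

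The receptor of complement fragments led the surface receptors. Cr2, which encodes CD21, read 3339 intensity units with PBS, 10071 after MRL/MpJ urine and 8057 after lpr urine. Both urine arrays were above the PBS array before any scaling, and after scaling Cr2 was 5.48-fold and 5.02-fold higher (log2 differences of 2.46 and 2.33). Its other probes gave 2.01 and 2.16 with MRL/MpJ urine and 1.84 and 2.08 with lpr urine, and on the spike-in scale it remained higher by 1.55 and 1.34. It lay above 96.7% of all genes measured with MRL/MpJ urine.

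The chains of the receptor itself did not keep together. Cd79a read 678 intensity units with PBS, 674 after MRL/MpJ urine and 585 after lpr urine, which is a scaled difference of 0.85 and 0.84. Cd79b read 16914, 7948 and 6439 units, a difference of -0.23 and -0.34. Cd79a thus lay above 79.4% of all genes with MRL/MpJ urine and Cd79b above 35.4%. Each was read by 1 probe. On the spike-in scale Cd79a differed by -0.05 and -0.15 and Cd79b by -1.13 and -1.33.

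Receptors that restrain B cell activation were higher or near the middle, and none of these 4 was 2-fold lower by the main scaling. Cd22, a sialic acid-binding inhibitor of receptor signalling, read 664, 1187 and 950 units with PBS, MRL/MpJ urine and lpr urine, or 3.25-fold and 2.98-fold higher after scaling. Its 4 probes ran from 0.90 to 2.78 with MRL/MpJ urine and from 0.65 to 2.95 with lpr urine, all in the same direction. Siglecg, the related inhibitor of B-1 cells, read 433, 602 and 491 units and was 2.53-fold and 2.36-fold higher. Fcgr2b, the inhibitory receptor of IgG, read 370, 324 and 243 units, a difference of 0.67 and 0.45, and so stayed within 2-fold. Cd72, which binds CD100 and carries an inhibitory motif, read 1890, 1140 and 882 units and lay at the middle of all genes, at 0.13 and -0.04. On the spike-in scale Cd22 and Siglecg remained higher, by at most 0.80, whereas Fcgr2b was lower, at -0.23 and -0.54, and so was Cd72, at -0.77 and -1.03, which is past 2-fold with lpr urine.

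Of the remaining surface molecules, Cd37, Cd1d1 and Cd38 stood highest. Cd37, a tetraspanin, read 3149 units with PBS, 5082 after MRL/MpJ urine and 4711 after lpr urine and was 2.93-fold and 3.11-fold higher. Cd1d1, which presents lipid antigens and is abundant on marginal zone B cells, read 298, 494 and 441 units and was 3.01-fold and 3.08-fold higher. Cd38, an ectoenzyme that consumes NAD, read 168, 254 and 222 units and was 2.75-fold and 2.76-fold higher. In each of these 3 genes the PBS array was the lowest before scaling. Fcrl1, an Fc receptor-like activator, was 2.13-fold and 2.09-fold higher. Ms4a1, which encodes CD20, read 5318, 6120 and 5071 units, so that its signal hardly differed before scaling, and it was 2.09-fold higher with MRL/MpJ urine and 1.98-fold with lpr urine, on either side of the 2-fold line. Cd24a, a small anchored glycoprotein of immature and activated B cells, differed by 0.64 and 0.75. Fcer2a, the low-affinity IgE receptor CD23 of follicular B cells, differed by 0.74 and 0.71 on its brightest probe, which carries a RefSeq accession, and by -1.04 and -0.50 on a dim probe.

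On the probes used, Cd180 was the only one of the 34 that read 2-fold lower by the main scaling, and the call depended on the probe. Cd180, a Toll-like receptor relative that drives B cell growth, read 974 units with PBS, 128 after MRL/MpJ urine and 85.9 after lpr urine on the chosen probe, 4.18-fold and 5.45-fold lower. A neighbouring probe of the same Ensembl transcript differed by -2.30 and -2.65. Both probes with a RefSeq accession, which were dimmer, differed by 0.09 and 0.44 with MRL/MpJ urine and by 0.13 and 0.41 with lpr urine.

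**Figure D2:**
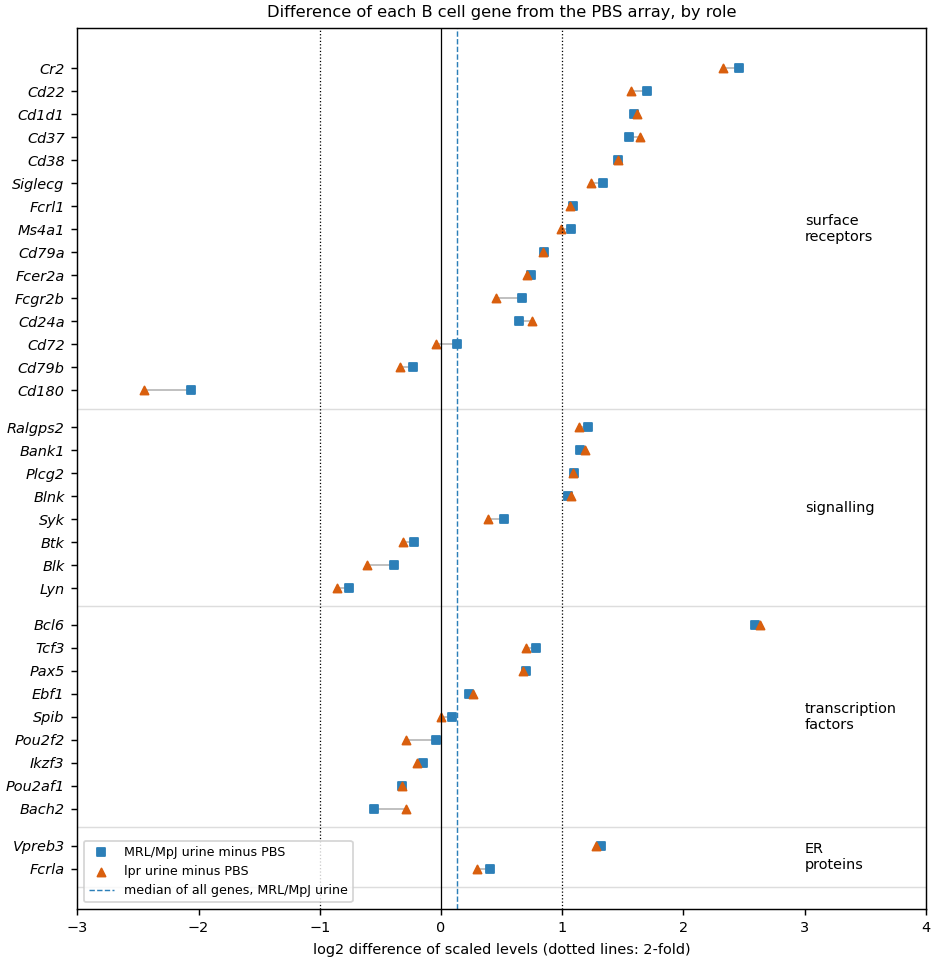
Log2 difference of scaled levels from the PBS array for each of the 34 B cell genes by role, with MRL/MpJ urine (blue squares) and lpr urine (orange triangles); dotted lines mark 2-fold, and the dashed line at 0.13 marks the median of all genes with MRL/MpJ urine. Most surface receptors lie to the right, Blnk, Plcg2, Bank1 and Ralgps2 lie to the right of the 4 kinases on the probes used, and transcription factors other than Bcl6 lie between -0.55 and 0.78 with MRL/MpJ urine.

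Of the 8 signalling genes, 4 read at least 2-fold higher on the probes used, with each urine. That count was 0 with median scaling, spike-in scaling and normexp in both comparisons, and 6 and 5 with the mean of probes. Blnk, the adaptor that links Syk to phospholipase C, read 6614 units with PBS, 7530 after MRL/MpJ urine and 6688 after lpr urine and was 2.07-fold and 2.10-fold higher after scaling. Plcg2, the phospholipase itself, read 2581, 3050 and 2634 units and was 2.15-fold and 2.12-fold higher. Bank1, a scaffold with ankyrin repeats that is tied to lupus risk in people, read 1316, 1603 and 1446 units and was 2.21-fold and 2.29-fold higher. Ralgps2, an exchange factor for Ral GTPases, was 2.32-fold and 2.20-fold higher, and its 5 probes ran from 0.76 to 2.08 and from 0.78 to 1.87. These 4 genes differed by 0.15 to 0.31 with MRL/MpJ urine on the spike-in scale, so that their signals were close to those with PBS and their distance arises against the lower signal of most other genes.

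The 4 kinases were lower than these genes on their chosen probes, but not for all probes. Lyn, which starts the signal and also restrains it, read 5824 units with PBS, 1898 after MRL/MpJ urine and 1544 after lpr urine, a scaled difference of -0.76 and -0.86, while its other probe differed by 3.96 and 4.03. Blk, a Src-family kinase mostly limited to B cells, read 222, 93.4 and 69.9 units (-0.39 and -0.61). Btk, the kinase lost in X-linked agammaglobulinaemia, read 1403, 664 and 545 units (-0.22 and -0.31), while its other probe differed by 0.23 and 0.06. Syk read 2942, 2326 and 1858 units (0.52 and 0.39), and its other probes lay between 1.03 and 2.05 with MRL/MpJ urine and between 0.85 and 1.64 with lpr urine. With the mean of probes Lyn stood at 1.60 and 1.59, above the other signalling genes. Syk stood at 1.21 and 0.98, where Blnk, Plcg2, Bank1 and Ralgps2 lay between 1.05 and 1.32 and between 1.07 and 1.19. On the chosen probes none of the 4 kinases reached 2-fold in either direction by the main scaling, although on the spike-in scale Lyn, Blk and Btk were lower by more than 2-fold, at -1.66, -1.29 and -1.12 with MRL/MpJ urine. Dividing the signalling genes into kinases and others was done after their values were seen.

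Transcription factors lay close to the middle of all genes. Their median difference was 0.09 after MRL/MpJ urine and 0.00 after lpr urine. On the probes used, 8 of 9 stayed within 2-fold in each comparison. Pax5, the factor that commits cells to the B lineage, read 334 units with PBS, 298 after MRL/MpJ urine and 257 after lpr urine (0.70 and 0.68). Ebf1, which acts with Pax5, read 3141, 2033 and 1812 units (0.23 and 0.26), and Tcf3, which encodes E2A, read 414, 391 and 323 units (0.78 and 0.70). On these probes all 3 signals were highest with PBS, so that on the spike-in scale they lay at -0.12 to -0.67 with MRL/MpJ urine. The other Pax5 probe was lowest with PBS, at 71.1, 92.5 and 80.0 units, and past 2-fold higher (1.24 and 1.23). The other Ebf1 probes differed by 0.46 and 0.78 with MRL/MpJ urine and by 0.69 and 0.97 with lpr urine. The other Tcf3 probe differed by 0.61 and 0.66. Spib, an Ets factor of mature B cells, differed by 0.09 and 0.00. Pou2af1, the co-activator OBF-1 of octamer-binding factors, read 3197, 1409 and 1231 units (-0.32 and -0.32), and its partner Pou2f2, which encodes Oct-2, read 300, 161 and 118 units (-0.04 and -0.29). Ikzf3, the Ikaros relative Aiolos, differed by -0.15 and -0.20 on the chosen probe. Its 6 probes ran from -0.82 to 1.09 and from -1.35 to 1.18.

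Bcl6 and Bach2, the repressors that oppose plasma cell formation, depended on the probe. Bcl6 read 342 units with PBS, 1135 after MRL/MpJ urine and 1021 after lpr urine on the chosen probe, 6.03-fold and 6.21-fold higher, but 1667, 313 and 340 units on the probe with the RefSeq accession, a difference of -1.55 and -1.24. Bach2 differed by -0.55 and -0.29 on its chosen probe, which has no RefSeq accession. On the brighter of its probes with a RefSeq accession it differed by -2.29 and -2.36 and read 1550, 174 and 145 units. With the mean of probes Bach2 was past 2-fold lower, at -1.25 and -1.10. All 3 Bach2 probes gave a negative difference with each urine. Of the proteins of the endoplasmic reticulum, Vpreb3, an immunoglobulin chain-binding protein, read 1028, 1406 and 1202 units and was 2.49-fold and 2.43-fold higher, and Fcrla, an Fc receptor-like protein that stays inside the cell, differed by 0.40 and 0.30.

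**Figure D3:**
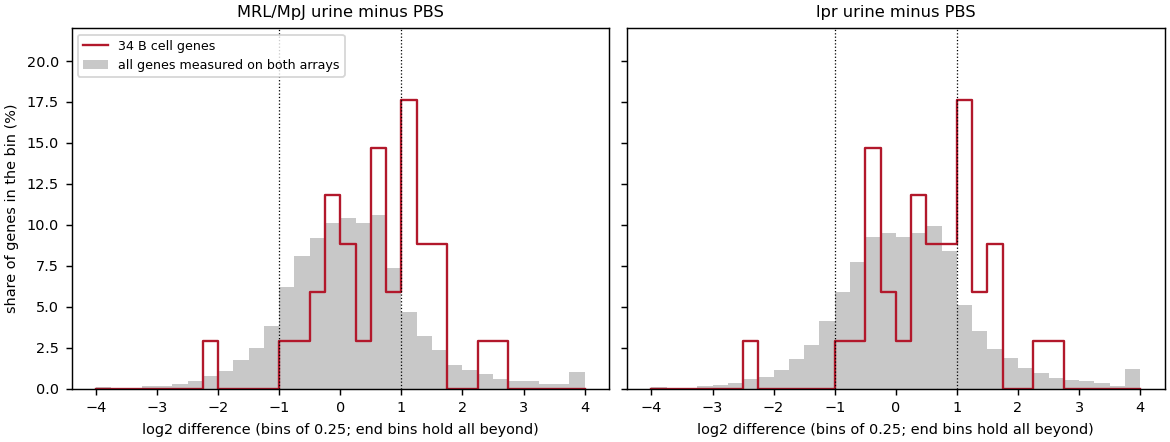
Share of genes, in percent, in bins of 0.25 of the log2 difference from PBS, for all genes measured on both arrays (grey bars) and for the 34 B cell genes (red line); dotted lines mark 2-fold and the end bins hold all values beyond. The B cell genes crowd between 0.5 and 1.75 with MRL/MpJ urine and leave few genes in the lower tail.

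Promoter windows of 300 bases, 250 before to 50 after each transcript start, were given for 27 of the 34 genes (35 windows, RefSeq, build GRCm38.p6). They were searched on both strands for letters bound by factors named above: ATTTGCAT (octamer), TCCC and GGGA with 2 bases of any kind between them (Ebf), GAGGAAGT (Ets, as for Spi-B and PU.1) and CAGCTG (E-box, as for E2A). Each was searched on its own, so that matches of different motifs may overlap. The octamer was in 2 of the 27 genes, Blnk and Vpreb3, and in 1.74% of all 32851 windows. The Ebf letters were in 1 gene, Cd22, and in 0.904% of all windows; the Ets letters were in 3, Cd37, Cd72 and Fcrl1, and in 3.20%; the E-box was in 2, Fcer2a and Syk, and in 16.3%. The stretches just upstream of the start of genes with the first 3 motifs are printed 5′ to 3′ on the strand of the gene, with the motif in capitals (on the other strand where it reads ACTTCCTC), because Cd22, Cd37, Vpreb3, Blnk and Fcrl1 were at least 2-fold higher with each urine and Cd72 was not.
Cd22 (chr7:30879029-30879148, minus strand): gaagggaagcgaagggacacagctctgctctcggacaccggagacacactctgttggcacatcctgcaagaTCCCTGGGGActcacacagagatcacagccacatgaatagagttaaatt
Vpreb3 (chr10:75948180-75948299, plus strand): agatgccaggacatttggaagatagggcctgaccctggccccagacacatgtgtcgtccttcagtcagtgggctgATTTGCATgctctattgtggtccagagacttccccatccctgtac
Blnk (chr19:40994222-40994371, minus strand): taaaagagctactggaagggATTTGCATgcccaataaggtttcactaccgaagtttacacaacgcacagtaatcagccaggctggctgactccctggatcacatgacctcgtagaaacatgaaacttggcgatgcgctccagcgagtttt
Cd37 (chr7:45238840-45238959, minus strand): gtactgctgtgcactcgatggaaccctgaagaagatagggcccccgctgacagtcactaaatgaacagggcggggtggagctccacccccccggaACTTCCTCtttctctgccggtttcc
Fcrl1 (chr3:87376267-87376386, plus strand): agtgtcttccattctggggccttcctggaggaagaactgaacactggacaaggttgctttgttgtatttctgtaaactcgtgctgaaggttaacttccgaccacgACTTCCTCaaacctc
Cd72 (chr4:43454627-43454746, minus strand): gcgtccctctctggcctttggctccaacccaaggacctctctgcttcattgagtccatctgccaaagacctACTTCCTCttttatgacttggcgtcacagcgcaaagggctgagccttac
Relative to the transcript start, the first base of the motif is at -49 in Cd22 and Cd72, -45 in Vpreb3, -130 in Blnk, -25 in Cd37 and -15 in Fcrl1. A match describes letters only. Cd37, Fcrl1 and Cd72 hold the same Ets letters and differed by 1.55, 1.09 and 0.13 with MRL/MpJ urine.

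Several genes were read by more than 1 probe, and this shows which values rest on the choice of probe. The 34 genes had 74 probes, 73 of them well above background on all 3 arrays, and 22 genes had several such probes. In 16 of the 22 all probes had the same sign with MRL/MpJ urine, and in 15 with lpr urine. The spread between the probes of a gene had a median of 0.49 and 0.55, and it was at least 1 in 9 genes in each comparison. For the 27 genes whose strand RefSeq gives, all 59 probes lay on the strand of the gene. The widest spread was that of Lyn, whose second probe, on an Ensembl transcript 22054 bases downstream of the first, read 232 units with PBS, 1985 after MRL/MpJ urine and 1821 after lpr urine, a difference of 3.96 and 4.03. The PBS array was thus the highest of the 3 on the first Lyn probe and the lowest on the second. In Bcl6 the chosen probe lay 2620 bases upstream of the RefSeq probe along the gene. The first 30 bases of these 60-base probes are printed as deposited, with their mm9 positions, to identify what was read.
Lyn, RefSeq accession (chr4:3718130-3718189, plus strand): aaactgctgtgtctgcccctttcacttatg
Lyn, Ensembl accession (chr4:3740184-3740243, plus strand): ccattaaccatggggaaggttctgtccaaa
Bcl6, RefSeq accession (chr16:23965160-23965219, minus strand): cagggtttggctgtgtctaaactgcattag
Bcl6, Ensembl accession (chr16:23967780-23967839, minus strand): tatgtaggagcagtgaaggtgttaaaggaa
Cd180, RefSeq accession (chr13:103496617-103496676, plus strand): ctgggctgggggttcactgagcttttctga
Cd180, Ensembl accession (chr13:103494284-103494342, plus strand): aatgtatgcttagcatgtgctaggtcctgg
With RefSeq-accession probes alone, a rule added after these differences were seen, 33 genes had a value (Tcf3 had none). Of these, 13 read at least 2-fold higher and 2 lower with MRL/MpJ urine (13.6% and 12.4% of all genes by that rule), and 12 higher and 2 lower with lpr urine (14.7% and 13.7%). The 2 lower genes were Bcl6 and Bach2, and Bach2, within 2-fold on its chosen probe, then stood at -2.29 and -2.36. Bcl6 thus reversed, and so did Cd180, which then was higher than with PBS. Every other 2-fold call kept its direction.

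**Figure D4:**
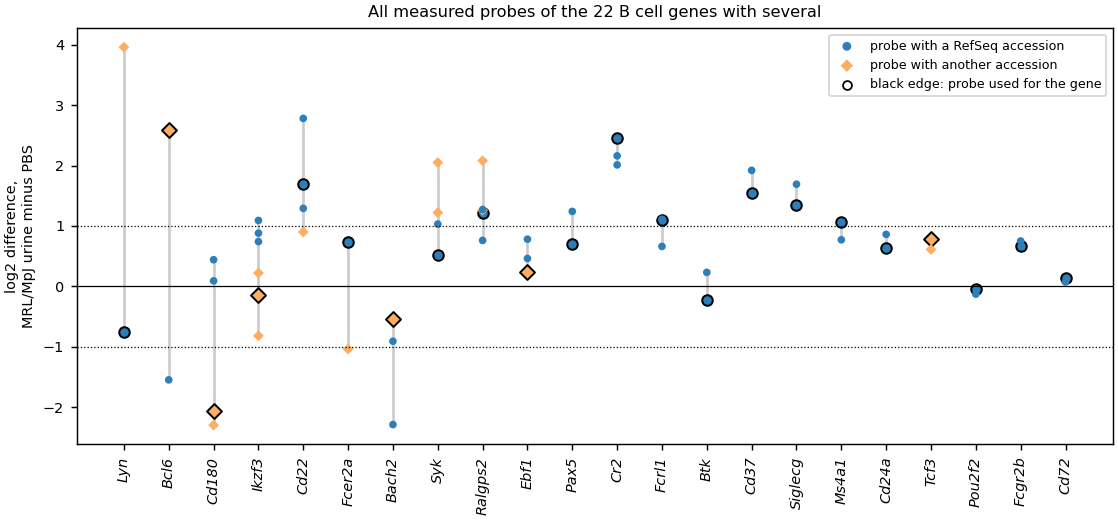
Log2 difference between MRL/MpJ urine and PBS for each measured probe of the 22 B cell genes with several, ordered by their spread; circles are probes with a RefSeq accession, diamonds other accessions, and a black edge marks the probe used for the gene. The probes of Lyn (-0.76 and 3.96), Bcl6 (2.59 and -1.55) and Cd180 lie far apart, whereas those of Cr2, Cd37, Siglecg and Ms4a1 lie on 1 side of 0.

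Scaling set the sign of many genes. Median and spike-in scaling keep their order, but quantile normalization does not: with MRL/MpJ urine Cd79b then stood at -0.74, below Bach2 at -0.45, and Ms4a1 at 0.86, below Cd79a at 0.95. Before scaling, 14 of the 34 genes had a higher signal with MRL/MpJ urine than with PBS and 12 with lpr urine. The urine arrays were dimmer as a whole, with 75th percentiles of 86.64 and 75.71 units against 157.5 with PBS. On the spike-in scale 2 genes read at least 2-fold higher with each urine, Cr2 and Bcl6 (against 5.61% and 5.60% of all genes), while 8 after MRL/MpJ urine and 10 after lpr urine read at least 2-fold lower (against 40.9% and 44.0%). Every gene past 2-fold by the main scaling kept its direction on the spike-in scale, as it must with shifts of -0.90 and -0.99. Only 3 of 15 such genes with MRL/MpJ urine and 3 of 14 with lpr urine stayed past 2-fold there. The B cell genes had a higher median than all genes under each of the alternatives shown in the plot of medians by setting. Median and spike-in scaling shift all genes alike, so that their rows of the plot only repeat the main gap.

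**Figure D5:**
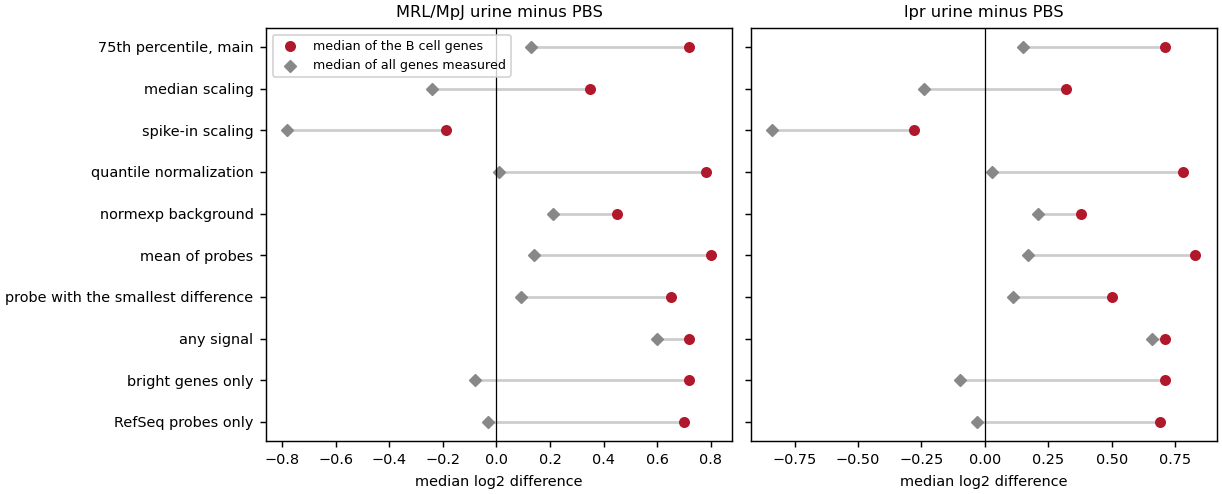
Median log2 difference from PBS of the B cell genes (red circles) and of all genes measured (grey diamonds) under each scaling, background correction, probe rule and filter. The red circle lies to the right of the grey diamond in every row, and on the spike-in scale both lie below 0, at -0.19 and -0.78 with MRL/MpJ urine. The rows of median and spike-in scaling repeat the main gap by construction.

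The urines differed little in these genes. None of the 34 differed 2-fold between the lpr urine and MRL/MpJ urine arrays, where 0.340% of 20012 genes read at least 2-fold higher and 0.0600% lower with lpr urine. The median difference was -0.06, and single genes lay between -0.38 (Cd180) and 0.26 (Bach2) on the probes used. Other probes of Bach2 differed by -0.07 and 0.27. Those of Cd180 differed by -0.35 on the Ensembl transcript and by -0.03 and 0.04 with RefSeq accessions. Signals before scaling were higher with MRL/MpJ urine in 33 of 34 genes, all but Bach2, on the probes used. The MRL/MpJ urine array was also brighter as a whole, with a 75th percentile of 86.64 against 75.71 units. Only 6 genes differed by more than 2 SD of repeated spots at their brightness, 1 of them higher with lpr urine (Bach2) and 5 lower. In this comparison that SD rested on 11 repeated probes at log2 signals of 8 to 11 and on 7 at 5 to 8, against 257 above 11. Cr2 differed by -0.13 and Cd22 by -0.13, so that their distance from PBS was about the same with either urine.

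Other genes of the receptor pathway, from a list of 19, were nearer the middle than the surface receptors. With each urine, 5 of 19 read at least 2-fold higher and 0 lower, with a median of 0.33 after MRL/MpJ urine and 0.39 after lpr urine. With normexp the counts were 2 higher and 1 lower with each urine. On the spike-in scale they were 0 higher and 6 lower, where 40.9% and 44.0% of all genes were lower. With the mean of probes, 7 were higher and 2 lower with MRL/MpJ urine, and 7 higher and 1 lower with lpr urine. Bcl10 and Malt1, which act between the receptor and NF-kB, were within 2-fold on the probes used. Bcl10 read 1014, 285 and 253 units (-0.97 and -0.94) and Malt1 1860, 706 and 590 units (-0.54 and -0.60). With MRL/MpJ urine, however, the probes of Bcl10 ran from -1.28 to -0.97 and those of Malt1 from -2.16 to -0.13. Of 11 measured receptor inhibitors, 1 was 2-fold higher and 2 were lower with each urine. Dok3, an adaptor that recruits a lipid phosphatase, was 2.55-fold and 2.36-fold higher, whereas the ubiquitin ligase gene Cblb was 4.30-fold and 4.61-fold lower and the phosphatase gene Ptpn22 2.21-fold and 2.29-fold lower. Ptpn6, the phosphatase SHP-1 used by CD22, differed by 0.85 and 0.87.

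Genes that receptor stimulation induces early were mostly low on their brightest probes. Of 13 measured, 7 read at least 2-fold lower and 2 higher with each urine, and the median was -1.66 in both comparisons. These values depended on the probe: with the mean of probes 5 were lower and 3 higher, with medians of -0.54 and -0.05, and with the probe of smallest difference 5 were lower and 2 higher, with medians of -0.43 and -0.33. Probes of Egr3 ran from -1.97 to 2.41, those of Nfkbid from -2.15 to 2.29 and those of Ier2 from 0.07 to 6.81 with MRL/MpJ urine. Toward the lower side, probes of Cd86 ran from -3.75 to -1.66. These genes were named after their values were seen. Irf4 read 3070 units with PBS, 183 after MRL/MpJ urine and 166 after lpr urine, 9.23-fold and 8.88-fold lower. Cd83, a marker of activated B and dendritic cells, read 12680, 787 and 508 units, 8.86-fold and 12.0-fold lower. In the other direction, Egr1 was 4.32-fold and 4.27-fold higher and the early activation marker Cd69 3.52-fold and 3.36-fold higher, although another Cd69 probe differed by -0.41 with MRL/MpJ urine. These genes also answer to other signals and in other cells of the spleen.

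Genes of B cell subsets did not keep with the identity genes. Of 6 genes of follicular B cells, 4 read at least 2-fold lower and 0 higher with each urine. The follicle homing receptor gene Cxcr5 read 4735 units with PBS, 557 after MRL/MpJ urine and 448 after lpr urine, 4.68-fold and 5.09-fold lower, and the chemokine receptor gene Ccr6 was 3.69-fold and 3.76-fold lower. Foxo1 differed by 0.70 and 0.71 on its brightest probe, although another probe differed by -0.45 with MRL/MpJ urine. Of 7 measured genes of marginal zone B cells, 2 were 2-fold higher (Myof, 2.97-fold and 2.99-fold, and Mzb1, 2.43-fold and 2.30-fold, which also counts among the plasma cell genes) and 1 lower (Cd9, 2.18-fold and 2.10-fold), so that the high Cr2 and Cd1d1 were not shared by the list. Of the germinal centre genes, 7 were measured after MRL/MpJ urine and 5 after lpr urine. Among these 3 were 2-fold lower in each comparison, with Basp1 at -2.62 and -2.78. Only 1 was 2-fold higher with lpr urine, Mybl1 at 1.31. Mybl1 was dim, at 17.7, 19.0 and 21.1 units with PBS, MRL/MpJ urine and lpr urine, so that its signals were close before scaling.

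Markers of other spleen cells give the setting of these values. Of 9 plasma cell genes, 4 were 2-fold higher and 0 lower with MRL/MpJ urine and 5 higher and 1 lower with lpr urine (Slamf7, at -1.07). The immunoglobulin joining chain gene Jchain was 2.33-fold and 2.30-fold higher, while Prdm1, the factor that Bcl6 represses, differed by -0.37 and -0.56. Of 13 measured T cell genes, 1 was higher (Lat) and 1 lower (Cd28) with each urine, and their medians of 0.03 and 0.22 lay close to those of all genes. Medians were 0.84 and 0.91 for 11 genes of monocytes and macrophages, 0.79 and 0.86 for 10 neutrophil genes and 0.63 and 0.71 for 6 erythroid genes, which are values like the 0.72 and 0.71 of the B cell genes. They were 0.38 and 0.28 for 8 dendritic cell genes and 0.01 and 0.01 for 7 NK cell genes. Myeloid markers thus lay as high as the B cell genes, with single genes between -0.44 and 1.29 for monocytes and macrophages after MRL/MpJ urine, and Lyn, Syk, Btk, Plcg2, Fcgr2b and Cd38 are also expressed in myeloid cells. With normexp the counts of plasma cell genes at least 2-fold higher were 0 and 1. The part of these cells in the values was not tested.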

How the data were processed

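The arrays were 1-colour (Cy3) Agilent arrays of design 074809, per the file headers, read with Agilent Feature Extraction 12.0.3.1, per the submitters' processing notes. The deposited values are intensity: the authors' software had subtracted background and detrended the processed signal within each array, per the file headers, and had not normalised between arrays. The software replaced very low signals by a surrogate. For the normexp alternative, deposited spot means and local backgrounds, also intensity, were taken before that processing (offset 50, limma 3.58.1).

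Flagged spots were left out, repeated spots of a probe averaged (56599 probes), and log2 processed signal minus the 75th percentile of each array taken with pandas 2.3.3. A call needed signal well above background on both arrays and a 2-fold difference. There was 1 array per condition, so no test was run, and the number of arrays limits the precision. The steps were tested on simulated data. Alternatives were median, spike-in and quantile scaling, normexp, the mean of probes or the probe with the smallest difference, filters on signal, a 1.5-fold threshold and, added after the data were seen, RefSeq probes. Members and lists were chosen with earlier results of these data known. All 34 members are named. From the other lists, up to the 2 highest and 2 lowest genes per comparison are named. Jchain and the early genes given only by the range of their probes were named after their values were seen. Some genes that this rule picks are not reported here. Protein sequences were not used here. Probe positions are on mm9, promoter positions on GRCm38.p6, and no position was converted.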

Additional observations from a re-analysis of the deposited data

How the results depend on the processing

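No paired analysis was possible because each condition had 1 array. Scaling moved the counts most. Counts of the 34 genes at least 2-fold higher and lower are given for MRL/MpJ urine, then for lpr urine, followed by both medians. They were 6 and 2, 6 and 2, 0.35 and 0.32 with median scaling; 2 and 8, 2 and 10, -0.19 and -0.28 with spike-in scaling; and with quantile normalization 12 and 1, 12 and 2, 0.78 and 0.78. Normexp background correction gave 8 and 1, 6 and 2, 0.45 and 0.38. Shares of all genes moved too. For MRL/MpJ urine, 10.6% were at least 2-fold higher and 21.0% lower with median scaling. These shares were 14.1% and 12.4% with quantile normalization, and 6.97% and 8.23% with normexp. For lpr urine they were 11.1% and 22.1% with median scaling, and 7.32% and 9.66% with normexp. With quantile normalization the shares for lpr urine were close to those for MRL/MpJ urine.

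The mean of probes gave 13 and 1, 12 and 2, and medians of 0.80 and 0.83, and the probe with the smallest difference gave 9 and 1, 9 and 1, 0.65 and 0.50. A 1.5-fold threshold gave 20 and 2 and 19 and 3. Of all genes, 31.2% were then higher and 22.5% lower with MRL/MpJ urine, and 33.4% and 22.9% with lpr urine. RefSeq probes alone gave 13 and 2 and 12 and 2, with medians of 0.70 and 0.69. Between the urines no gene of the 34 passed 2-fold under any alternative run, or 1.5-fold by the main scaling, and the median, -0.06, was -0.15 with spike-in scaling and -0.13 with normexp.

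Bcl6 reversed with the probe, to -1.55 and -1.24 with the probe of smallest difference and with RefSeq probes. Cd180 reversed to 0.09 and 0.13 and to 0.44 and 0.41 under these rules. With lpr urine the median of germinal centre genes, -1.02, became 0.01 with normexp and that of plasma cell genes, 1.01, became -0.26 among bright genes; the cause was not tested. Filters on signal changed no count of the 34. Dim probes limit the size of a difference, and 1 array per condition limits every comparison.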
